A study of Homo sapiens with 9 samples.

Results

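Microexons are very short internal exons of a gene, and a limit of 30 bases is often used for the class. A member is a skipped exon of 30 bases or shorter together with its upstream and downstream flanking exons, taken from the deposited tables of skipped-exon events. The table of ORF with NC holds 846 such events among 67346, and the table of MT with NC holds 809 among 62261. Over both tables these are 993 events of 79876, and they cover 749 distinct exons in 689 genes. A total of 662 events appear in both tables, 184 only in that of ORF with NC and 147 only in that of MT with NC.

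The cells are HCT-116, an established line from a human colon carcinoma that grows as epithelial sheets. Each of the 3 groups has 3 libraries of RNA. The ORF cells stably express the open reading frame of LINC00266-1, an RNA annotated as long non-coding whose reading frame encodes a peptide. The cells labelled MT stably express the 5'UTR-ORFmut construct, in which the start codon is changed from ATG to ATT so that no peptide should be made. The NC cells carry a blank vector. The labels give replicate numbers but not whether the 3 libraries of a group were grown apart, so a p-value here speaks of the spread among libraries, which may be technical. They also do not say whether the stable cells are clones or pools.

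LINC00266-1 had 9951, 10229 and 10310 reads in the ORF libraries, 1, 0 and 0 in the libraries labelled MT, and 1, 0 and 0 in the NC libraries. Reads of this gene thus do not set the MT libraries apart from NC. Every direction given for them rests on the label, and they are called "the libraries labelled MT" throughout. The depth of a library ran from 19460596 to 24370517 reads in genes. PKM, the pyruvate kinase gene of glycolysis, took 3.67% to 5.54% of the reads in the ORF libraries, against 0.262% to 0.342% in the other 6, and its part in the results was not tested. The keratins and other epithelial markers summed to 4847 to 6419 CPM (reads scaled to a common library total) in ORF, 4991 to 6624 in the libraries labelled MT and 4746 to 5381 in NC, although VIL1, a brush border marker of gut epithelium, had 7, 8 and 11 reads in the 3 groups. The 7 neuron markers in the tables summed to 28.9 to 54.6 CPM in ORF, 41.6 to 53.0 in the libraries labelled MT and 48.4 to 58.5 in NC, most of it from SYT1. Fibroblast markers stayed at or below 1.71 CPM, blood cell markers at or below 0.588 CPM and muscle markers at or below 10.1 CPM in every library.

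A microexon leaves little room for the enhancer motifs that usually mark an exon, and its inclusion depends strongly on proteins bound in the introns beside it. SRRM4 and its relative SRRM3 promote inclusion in neurons and endocrine cells, RBFOX and MBNL proteins act through sites beside the exon, and PTBP1 binds pyrimidine-rich tracts and keeps many neuronal microexons skipped in other tissues. Microexons often keep the reading frame and add a few residues to the surface of a protein. They are best known from neurons and muscle.

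The exons below carry the results that follow. Each line gives spliced RNA sequence as DNA letters, 5′ to 3′, from a GENCODE 29 transcript (GRCh38) that joins the exon to both flanking exons. The microexon is in capitals and the neighbouring exon ends are in lower case. The first set holds the 5 shortest exons that could be tested.
APOO (chrX:23833607-23833612, minus strand): catcttaatcagTTATAGgaaaaactagac
PHB2 (chr12:6965911-6965916, minus strand): aagtttcaccagGGGAAGtgacagcctcat
MTSS1L (chr16:70679315-70679323, minus strand): gcgcgcaaagAGCTACTTGggaaaggaga
NUDT5 (chr10:12170900-12170908, minus strand): ccaaagccagGGGATGGAGagtttgtgga
USE1 (chr19:17217453-17217462, plus strand): actaggcacgGACTCTGCAGagcctgagat

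The second set holds exons of genes with a known neural or muscle microexon whose levels could be tested here.
MEF2D (chr1:156476494-156476514, minus strand): cttgACTGAGGACCATTTAGATCTGaaca
CLASP1 (chr2:121409024-121409047, minus strand): ttgCTGTTAGGAGACTCCAGGAGCAAGaag
PTPRF (chr1:43602071-43602097, plus strand): gTGGCGGCCAGAGGAGTCCGAGGACTATg
PPFIBP1 (chr12:27674192-27674221, plus strand): GAAAAGGAAACTATTCAGAAGACTTCAGAG

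The third set holds exons with small unadjusted p-values between the groups. Their values follow further down, and none of them passed adjustment.
ARPC3 (chr12:110436665-110436683, minus strand): aaaagTGCAATTCCAAAAGCCAAGaagtg
SENP6 (chr6:75640687-75640704, plus strand): ccaaagTCTGGACCGAAAAGAAAGgaaaga
FIP1L1 (chr4:53440582-53440608, plus strand): gGTATTCCAATAACTGTACCACCTCCAGg
MACF1 (chr1:39465095-39465112, plus strand): taccggTTCTTCCTCGGCAATCAGtttggg
SNX14 (chr6:85538838-85538864, minus strand): gAGGTAGCCTAAGTTTGGATGATTTTCGg
UGGT1 (chr2:128156392-128156415, plus strand): aagGAATGTCCTCCAAGGAAATCTATGatg
R3HDM2 (chr12:57305640-57305663, minus strand): cagGATTATGAGTTCCTTTTTGACAAGagg
RAPGEF2 (chr4:159243774-159243791, plus strand): cacacgGAATGCACTAAATCTCAGcttcct

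The 749 exons ran from 3 to 30 bases with a median of 24. Only 29 were shorter than 10 bases, and 4 had 3 bases, the length of 1 codon. The most frequent length was 30 bases with 109 exons, followed by 27 bases with 92. Lengths divisible by 3 keep the reading frame when a coding exon is skipped. They made up 429 of the 749 exons (57.3%). The share was 39.5% among the 54456 distinct skipped exons of 31 to 300 bases and 37.4% among the 3194 exons over 300 bases. Most of the microexons lay wholly within coding sequence (572 exons, 76.4%), and of these 63.1% kept the frame. Another 43 microexons occur in transcripts annotated for nonsense-mediated decay, the pathway that destroys messages with an early stop codon, and in no protein-coding transcript. Of these, 30.2% had a length divisible by 3. These shares describe the annotated exons in the tables and were not tested.

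**Figure D1:**
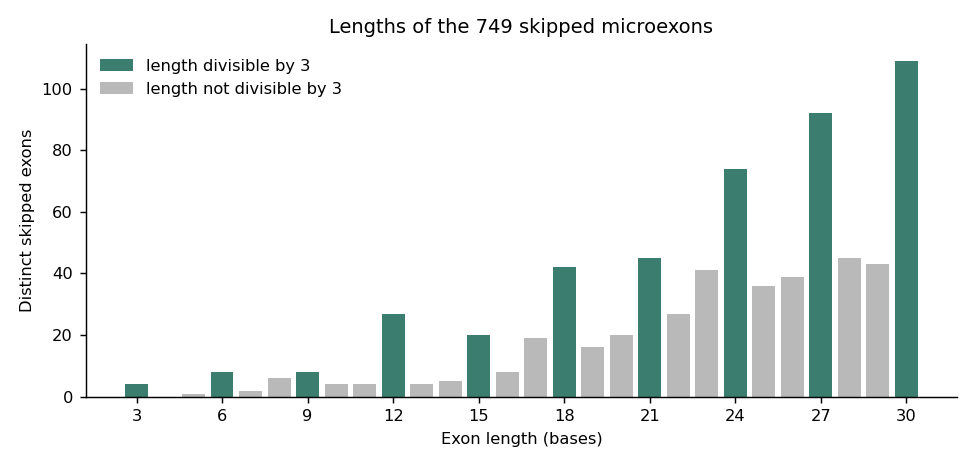
Number of distinct skipped exons (y axis) at each exon length in bases (x axis), over both tables, with lengths divisible by 3 in green and the others in grey. The bars at 12, 18, 24, 27 and 30 bases stand above their neighbours, with 109 exons at 30 bases.

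Microexons sat between shorter introns than longer exons did. The median upstream intron was 1423 bases and the median downstream intron 1306 bases, against 2204 and 1986 bases for exons of 31 to 300 bases. Over all bases of the microexons 47.8% were G or C, against 47.6% for exons of 31 to 51 bases. A longer annotated exon of the same strand overlapped 392 of the 749 microexons (52.3%), against 38.1% of exons of 31 to 300 bases, and in such cases the microexon can be the shorter choice of 2 competing splice sites. Of the 749 exons, 591 have 1 event and the others have several with different flanking exons, up to 9 for an exon of ZBTB8OS. A few starts (4) and ends (6) are shared by microexons of different length, as in SENP6, so events are not independent of each other.

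The inclusion level is the share of transcripts that hold the exon, as deposited for each library after correction for the lengths of the inclusion and skipping forms. The 3 levels of a group are given in the deposited order, which no label ties to numbered libraries. Among the events with a mean of 20 or more reads per library in the group, the median level was 0.920 in ORF (543 events), 0.927 in the libraries labelled MT (527 events) and 0.936 in NC (553 events of the table of ORF with NC). At least 0.95 was reached by 45.1% of them in ORF, 47.1% in the libraries labelled MT and 47.6% in NC. Levels of 0.05 or below were found for 23.8% in ORF, 23.9% in the libraries labelled MT and 24.1% in NC. For exons of 31 to 300 bases, levels of 0.05 or below were less frequent, at 8.80%, 9.68% and 9.07% in the same order of groups. The 3 ORF libraries had mean levels over these microexons of 0.626, 0.633 and 0.626, the 3 libraries labelled MT 0.625, 0.615 and 0.621, and the 3 NC libraries 0.634, 0.632 and 0.623.

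The shortest exons had the lowest levels. Of the exons of 3 to 15 bases, 22 of 47 events in ORF, 22 of 47 in the libraries labelled MT and 24 of 42 in NC had a level of 0.05 or below, with medians of 0.052, 0.054 and 0.032. Exons of 16 to 27 bases had medians of 0.884, 0.901 and 0.881, and exons of 28 to 30 bases 0.974, 0.978 and 0.983. Just outside the limit, exons of 31 to 33 bases had medians of 0.977, 0.978 and 0.979. Depth was lower for microexons than for longer exons, since 64.2% of microexon events in ORF, 65.1% in the libraries labelled MT and 65.4% in NC had a mean of 20 reads, against 77.2%, 78.2% and 79.1% of events of 31 to 300 bases.

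Divisibility of the length by 3 and annotation went with the level. Microexons with a length divisible by 3 had a median level of 0.575 in ORF, 0.586 in the libraries labelled MT and 0.663 in NC. Those with other lengths had 0.974, 0.980 and 0.985. Both sets include exons outside coding sequence, where the length does not bear on the reading frame. With exons that overlap a longer annotated exon left out, the medians were 0.321, 0.281 and 0.360 for lengths divisible by 3. They were 0.984, 0.985 and 0.989 for other lengths. Coding microexons had medians of 0.952, 0.957 and 0.965. Microexons found in decay transcripts and in no protein-coding transcript had medians of 0.013, 0.009 and 0.012. Of their events, 19 of 28 in ORF, 20 of 29 in the libraries labelled MT and 21 of 29 in NC stood at 0.05 or below. These orders were the same in the 3 groups, which are cells of 1 line, and they are given with no test.

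The listed genes with a known neural or muscle microexon number 31, and 9 of them had member events here, 16 events in all. In NC, 12 of these had 20 reads or more, with 7 at a level of 0.05 or below and 2 at 0.95 or above. EIF4G1, the scaffold of the translation initiation complex, has a 21-base microexon that was read at levels of 0.001, 0 and 0 in the ORF libraries, 0.002, 0 and 0 in those labelled MT and 0, 0 and 0 in NC. It was thus skipped nearly completely in all 9 libraries, with a mean of 610 reads per library in ORF. AGRN encodes agrin, whose short exons are included in nerve cells, where they make the form that gathers acetylcholine receptors, and its 24-base exon had levels of 0, 0.027 and 0 in ORF, 0 in all 3 libraries labelled MT and 0.009, 0.004 and 0 in NC. The exons of 9, 18 and 21 bases of PTK2, the focal adhesion kinase, had no level above 0.026 in any library.

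Other genes of the list included a microexon at least in part, from a low level in PTPRF to a high one in UNC13B. CLASP1, which binds growing microtubule ends, had levels of 0.593, 0.432 and 0.312 for its 24-base exon in the ORF libraries, 0.413, 0.266 and 0.326 in those labelled MT and 0.503, 0.449 and 0.352 in NC, and the groups overlapped. PPFIBP1, liprin beta 1 of the cell cortex, had 0.806, 0.843 and 0.774 in the ORF libraries, 0.912, 0.821 and 0.844 in those labelled MT and 0.882, 0.867 and 0.827 in NC, again overlapping. PTPRF, a receptor tyrosine phosphatase, had levels of 0.110, 0.094 and 0.089 in the ORF libraries, 0.092, 0.080 and 0.080 in those labelled MT and 0.099, 0.057 and 0.087 in NC. UNC13B, a priming factor of vesicle release, had 1 event at 0.953 or above in every library and a second one, with other flanking exons, at 0.857, 1 and 0.757 in the ORF libraries, 0.943, 0.915 and 1 in those labelled MT and 1 in all 3 NC libraries.

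**Figure D2:**
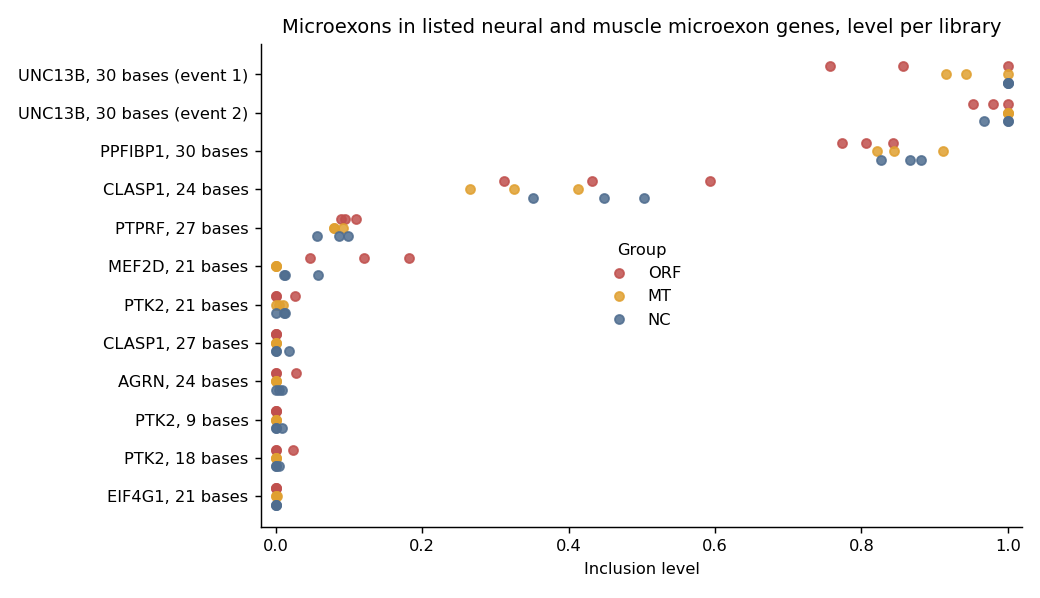
Inclusion level (x axis) per library of the 12 events with 20 reads or more in NC in genes with a known neural or muscle microexon (rows), with ORF in red above the libraries labelled MT in yellow and NC in blue. EIF4G1, AGRN, PTK2 and the 27-base exon of CLASP1 sit near 0 in all groups, and UNC13B and PPFIBP1 sit high. MEF2D has 0.120, 0.182 and 0.047 in ORF, against 0 in all 3 libraries labelled MT, while ORF overlaps NC (0.013, 0.058 and 0.011).

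Microexons with many reads show how steady the levels were. HNRNPC, which binds uridine-rich RNA in the nucleus, has a 26-base untranslated exon with 4621 reads per library in ORF, 4972 in the libraries labelled MT and 5080 in NC, and its level averaged 0.599 ± 0.018 in ORF, 0.618 ± 0.009 in the libraries labelled MT and 0.604 ± 0.006 in NC (SD, n = 3 each). FLNA, the actin cross-linker filamin A, included its 24-base exon at 0.474 ± 0.030, 0.475 ± 0.012 and 0.50 ± 0.017 in the same groups (SD, n = 3 each). ACLY, which makes cytosolic acetyl-CoA, included its 30-base exon at 0.768 ± 0.014 in ORF, 0.798 ± 0.040 in the libraries labelled MT and 0.794 ± 0.022 in NC (SD, n = 3 each). SNRPG, a core protein of spliceosomal snRNPs, had 0.893 ± 0.011, 0.90 ± 0.003 and 0.896 ± 0.010 (SD, n = 3 each).

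RPS24, a protein of the small ribosomal subunit, had levels of 0.187, 0.2 and 0.170 for its 22-base exon in the ORF libraries, 0.250, 0.235 and 0.238 in those labelled MT and 0.216, 0.229 and 0.233 in NC. The 3 ORF libraries lay below the other 6, but the difference of ORF against NC in log2 odds of inclusion was -0.36 ± 0.26 (SE) with an adjusted p of 0.708 in limma. For each SE, limma borrows from the spread of all tested events and does not weigh read depth. The SE and p of a deeply read exon thus do not rest on the spread of its own libraries alone. CHMP1A, an ESCRT-III protein of membrane scission, had 0.867, 0.854 and 0.865 in the ORF libraries, 0.912, 0.916 and 0.9 in those labelled MT and 0.903, 0.896 and 0.881 in NC, also without overlap of ORF, and an adjusted p of 0.757 against NC in limma. MACROD1, which removes ADP-ribose from proteins, had 0.971, 0.951 and 0.962 in the ORF libraries, 0.910, 0.912 and 0.931 in those labelled MT and 0.902, 0.928 and 0.934 in NC, with all ORF libraries above the other 6 and an adjusted p of 0.665 against NC in limma. MTCH2, a protein of the outer mitochondrial membrane, kept levels from 0.844 to 0.908 in all 9 libraries. GAS5, a non-coding host of small nucleolar RNAs, had its 23-base exon at 0.846, 0.890 and 0.873 in ORF against 0.942, 0.926 and 0.927 in NC, with an adjusted p of 0.610 in limma, and 5 longer annotated exons overlap it.

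The question of the first comparison is whether the peptide-coding ORF shifts microexon inclusion relative to the blank vector. No microexon was called. Reads could be recovered for 730 of the 846 events, 409 of these had a mean of 20 reads in both groups, and 150 of these also had an overall level between 0.05 and 0.95 and were tested together with all other skipped exons by limma on log2 odds of inclusion. At an adjusted p below 0.05 and a level difference of at least 0.05, 0 of the 150 passed, beside 2 of all 9717 events (0.0206%). An unadjusted p under 0.05 was reached by 14 microexons in limma, 2 with a higher and 12 with a lower level in ORF, which is 9.33% beside 8.49% of all events, and by 12 in edgeR, which called 0. The median difference was -0.06 log2 odds over the microexons and -0.09 over all events. The median SE of a microexon was 0.70 log2 odds, so shifts of about that size were not detectable. Larger shifts could also go uncalled, as for ARPC3 at -2.40 ± 0.57 log2 odds (SE), with an adjusted p of 0.446 in limma. The smallest adjusted p of a microexon was 0.446.

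Among the 10 smallest unadjusted p-values, 8 exons had a lower and 2 a higher mean level in ORF. ARPC3, a subunit of the Arp2/3 complex that nucleates actin branches, had levels of 0.908, 0.852 and 0.843 for its 19-base exon in ORF, against 0.972, 0.976 and 0.974 in NC. All ORF libraries were below all NC libraries. The difference was -2.40 ± 0.57 log2 odds (SE), with an unadjusted p of 0.00499 and an adjusted p of 0.446 in limma, and 4 longer annotated exons overlap it. SENP6, a protease that trims SUMO chains, had 0.531, 0.485 and 0.282 for its 18-base exon in ORF, against 0.806, 0.714 and 0.624 in NC, again without overlap. Its difference was -1.69 ± 0.51 log2 odds (SE) with an adjusted p of 0.506 in limma, on a mean of 35.7 reads in ORF and 25.3 in NC, and a 21-base member of the same gene shares its end.

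FIP1L1, a subunit of the machinery that cleaves and polyadenylates messages, had 0.464, 0.512 and 0.435 for its 27-base exon in ORF, against 0.693, 0.602 and 0.604 in NC. UGGT1, the folding sensor that re-glucosylates unfolded glycoproteins, had 0.410, 0.258 and 0.197 for its 24-base exon in ORF, against 0.456, 0.496 and 0.551 in NC. MACF1, a giant linker of actin and microtubules, had 0.225, 0.190 and 0.236 for its 18-base exon in ORF, against 0.392, 0.401 and 0.281 in NC. In all 3 genes the ORF libraries lay below all NC libraries, and the adjusted p was 0.516 for FIP1L1, 0.523 for UGGT1 and 0.530 for MACF1 in limma. R3HDM2 had 0.132, 0.150 and 0.105 for its 24-base exon in ORF, against 0.322, 0.227 and 0.215 in NC. STRADA, the pseudokinase that activates LKB1, had 0.024, 0.057 and 0.048 for its 29-base exon in ORF, against 0.145, 0.157 and 0.107 in NC. KMT5C, a methyltransferase of histone H4, had 0.968, 0.863 and 0.806 for its 20-base exon in ORF, against 0.983, 0.985 and 0.986 in NC.

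SNX14 and MEF2D had a higher mean level in ORF. SNX14, a sorting nexin of the endoplasmic reticulum, had 0.220, 0.272 and 0.292 for its 27-base exon in ORF, against 0.105, 0.185 and 0.071 in NC, a difference of 1.45 ± 0.45 log2 odds (SE) with an adjusted p of 0.516 in limma. MEF2D, a transcription factor of muscle and nerve cells, had 0.120, 0.182 and 0.047 for its 21-base exon in ORF, against 0.013, 0.058 and 0.011 in NC. The lowest ORF library lies below the highest NC library. The adjusted p was 0.566 in limma. Over the host genes of these 10 exons, the log2 difference of gene level between ORF and NC lay between -0.48 for STRADA and 0.23 for ARPC3, and 0 of the 10 host genes were called.

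**Figure D3:**
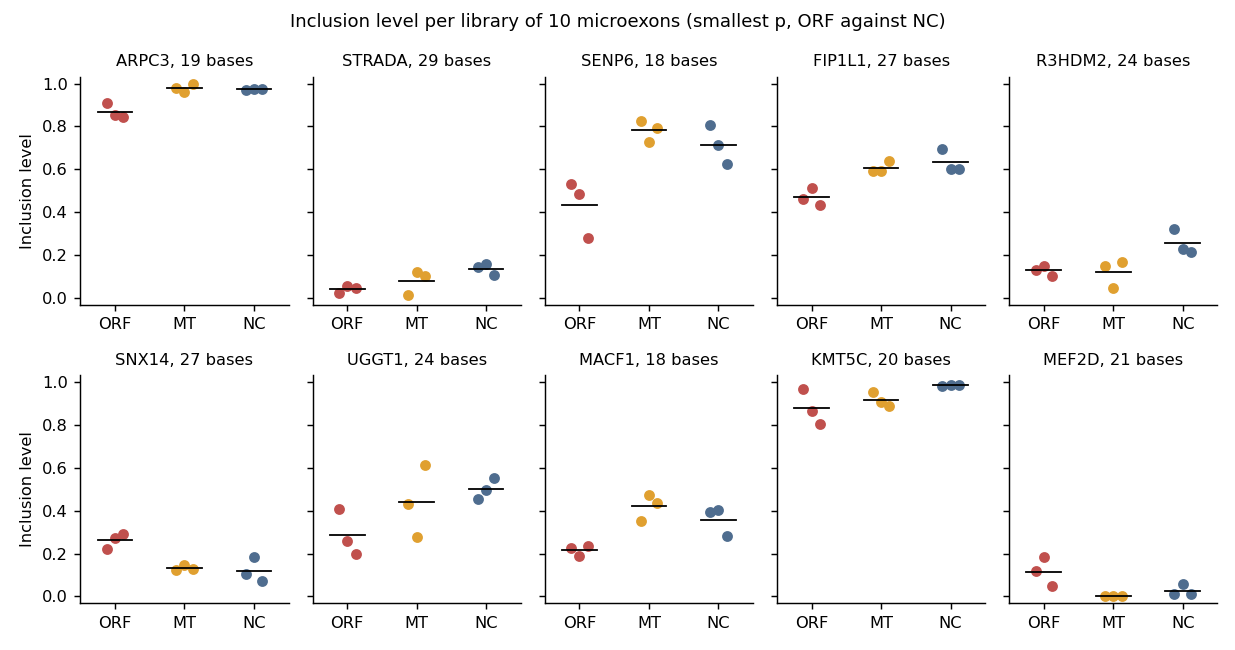
Inclusion level (y axis) per library (points) and group mean (line) of the 10 tested microexons with the smallest unadjusted p in ORF against NC, in ORF, the libraries labelled MT and NC. The ORF points lie below the NC points in ARPC3, STRADA, SENP6, FIP1L1, R3HDM2, UGGT1, MACF1 and KMT5C and above them in SNX14, and none of the 10 passed adjustment.

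The second comparison asks whether the construct with the mutated start codon differs from the blank vector, and its direction rests on the MT label. Of 809 events, 692 had recovered reads and 148 were tested. None of the microexons passed (0 of 148, beside 1 of all 9464 events, 0.0106%). An unadjusted p under 0.05 was reached by 6 in limma, 3 higher and 3 lower in the libraries labelled MT, which is 4.05% beside 5.34% of all events, and by 2 in edgeR, which called 0. The smallest adjusted p was 0.874, and the median SE was 0.66 log2 odds.

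RAPGEF2, an exchange factor for the small GTPase RAP, had 0.578, 0.843 and 0.713 for its 18-base exon in the libraries labelled MT, against 0.450, 0.548 and 0.358 in NC. The groups did not overlap, and the adjusted p was 0.882 in limma. URGCP has 2 overlapping microexons, of 22 and 27 bases, that end at the same splice donor. Both had the same skipping reads in the libraries labelled MT and in NC. Both are among the exons counted above as higher, so they are not independent there. The 22-base exon had 0.762, 1 and 1 in the libraries labelled MT, against 0.487, 0.507 and 0.777 in NC, and the 27-base exon had 0.871, 1 and 1 in the libraries labelled MT, against 0.803, 0.772 and 0.859 in NC. The groups overlapped for the shorter exon and did not for the longer. AFDN, afadin of cell junctions, had 0.074, 0.040 and 0.034 for its 21-base exon in the libraries labelled MT, against 0.218, 0.074 and 0.221 in NC. EXOSC10, a nuclease of the RNA exosome, had 0.808, 0.819 and 0.909 for its 16-base exon in the libraries labelled MT, against 0.9, 0.968 and 1 in NC, so that the groups overlapped. R3HDM2 had 0.150, 0.046 and 0.169 in the libraries labelled MT, against the NC levels above, with an adjusted p of 0.930 in limma.

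A pair of exons had reads in the libraries labelled MT and none in NC. The 12-base exon of INCENP, the scaffold of the chromosomal passenger complex, had levels of 0, 0.217 and 0.114 in the libraries labelled MT, against 0 in all 3 NC libraries, and 0.033, 0 and 0.134 in ORF. The 12-base exon of IDH3G, the regulatory subunit of NAD-dependent isocitrate dehydrogenase, had 0.735, 0.351 and 0 in the libraries labelled MT, against 0 in all 3 NC libraries. Each exon was at 0 in 1 library labelled MT, at a different place in the deposited order, and neither exon passed adjustment in limma (adjusted p of 0.938 for each).

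The third comparison sets ORF directly against the libraries labelled MT, on events that both tables hold. Again no microexon was called (0 of 144, beside 1 of all 9115 events, 0.011%). An unadjusted p under 0.05 was reached by 11 in limma, 4 higher and 7 lower in ORF, which is 7.64% beside 8.92% of all events, and by 12 in edgeR, which called 0. The smallest adjusted p, 0.266, was that of MEF2D. Its exon was found in 38 of 296 reads in ORF, against 0 of 297 reads in the libraries labelled MT, a count that allows a share of up to 1.01% of reads, for counting error only. NC lay between them with 7 of 222 reads.

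Some exons of this comparison were named in the first, and both comparisons use the same ORF libraries. MACF1 had 0.225, 0.190 and 0.236 in ORF, against 0.352, 0.472 and 0.437 in the libraries labelled MT, with an adjusted p of 0.388 in limma. SENP6 had 0.531, 0.485 and 0.282 in ORF, against 0.826, 0.728 and 0.793 in the libraries labelled MT, with an adjusted p of 0.400 in limma. PORCN, the enzyme that acylates Wnt ligands, had 0 in all 3 ORF libraries for its 18-base exon, on 67 reads in all, against 0.113, 0.068 and 0.286 in the libraries labelled MT. Its NC levels were 0.028, 0.036 and 0.174. NTAN1, an N-terminal amidase, had 0.672, 0.783 and 0.747 for its 22-base exon in ORF, against 0.517, 0.569 and 0.5 in the libraries labelled MT, while NC spanned 0.449 to 0.833. SPTAN1, non-erythroid alpha spectrin, had 0.820, 0.778 and 0.838 for its 18-base exon in ORF, against 0.915, 0.901 and 0.893 in the libraries labelled MT.

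**Figure D4:**
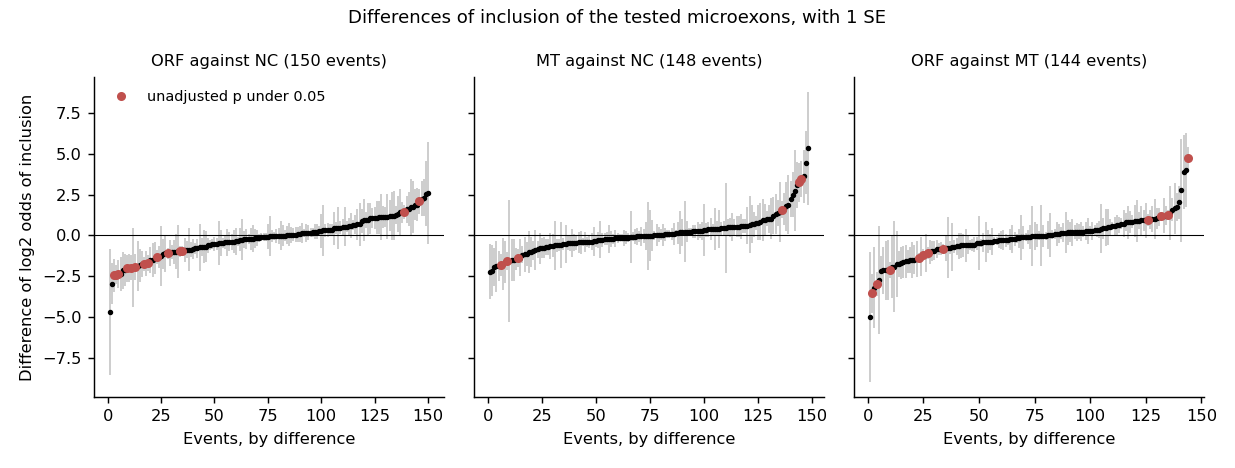
Difference of log2 odds of inclusion (y axis) of every tested microexon, ordered by its size (x axis), with 1 SE as a grey bar, for ORF against NC (150 events), MT against NC (148) and ORF against MT (144). Red points have an unadjusted p under 0.05 (14, 6 and 11 events), and none passed adjustment.

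A looser description counts events whose 3 levels in one group do not overlap those of the other and whose means are at least 0.2 apart, at any depth. In ORF against NC there were 6 higher and 6 lower among 729 microexons with all 6 levels, beside 0.397% and 0.478% of all events. In MT against NC there were 3 higher and 1 lower among 705, beside 0.301% and 0.313%. In ORF against MT there were 4 higher and 10 lower among 583, beside 0.479% and 0.522%. Most of these events had few reads. With a mean of 20 reads in both groups, SENP6 and UGGT1 remained in ORF against NC, 2 of 523 microexons, beside 0.402% of all events. RAPGEF2 and TRAPPC13 remained in MT against NC, 2 of 510, beside 0.267%. SENP6, MACF1 and NTAN1 remained in ORF against MT, 3 of 426, beside 0.436%. Counts of 2 or 3 are too small to set these shares apart from those of all events. TRAPPC13, a subunit of a vesicle tethering complex, had 0.517, 0.555 and 0.616 for its 18-base exon in the libraries labelled MT, against 0.362, 0.472 and 0 in NC.

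Some wide gaps were in events too thinly read in one group to be tested. The 8-base exon of PITPNA, a phosphatidylinositol transfer protein, had levels of 0 in all 3 ORF libraries, on 56 reads in all, which allow a share of up to 5.36%. Its levels were 0.899, 0.348 and 0.525 in the libraries labelled MT, with 122 of the 138 inclusion reads in 1 library, and 0.106, 0.380 and 0.341 in NC.

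Among the shortest tested exons, the 6-base exon of PHB2, a prohibitin of the inner mitochondrial membrane, had 0 in 1 ORF library, on 53 skipping reads, and 0.999 and 0.971 in the other ORF libraries, on 807 and 277 inclusion reads. It had 0.962 or above in every library labelled MT and in NC, so 1 library sets the ORF mean. APOO, a subunit of the complex that shapes mitochondrial cristae, has a 6-base exon in its untranslated part with 0.111, 0.182 and 0.064 in the ORF libraries, 0.115, 0.174 and 0 in those labelled MT and 0.017, 0.075 and 0.043 in NC. The 9-base exon of MTSS1L, an actin regulator, had 0, 0.074 and 0 in the ORF libraries, 0.098, 0.056 and 0.008 in those labelled MT and 0.086, 0.047 and 0.113 in NC. NUDT5, a hydrolase of ADP-sugars, included its 9-base exon at 0.872 to 0.943 in all 9 libraries, and USE1, a SNARE of the endoplasmic reticulum, its 10-base exon at 0.907 to 1.

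The authors' deposited table calls many more microexons. At an adjusted p below 0.05 and a level difference of at least 0.05, the authors' deposited table of ORF with NC has 94 of 846 microexons, 40 higher and 54 lower in ORF, beside 3635 of all its 67346 events (5.4%). The authors' deposited table of MT with NC has 67 of 809, with 34 higher and 33 lower in the libraries labelled MT, beside 2848 of all its 62261 events (4.57%). Of these, 32 and 19 could be tested here, and 9 and 3 had an unadjusted p under 0.05 in limma. UGGT1, for one, has an adjusted p of 4.1e-79 in the authors' deposited table of ORF with NC, against 0.523 here, and SENP6 has 4.9e-49 in the authors' deposited table, against 0.506 here. No label names the test behind the authors' p-values.

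The proteins that set microexon inclusion were read from the gene tables. SRRM4 was nearly absent, with 27 reads over the 3 ORF libraries, 17 over the libraries labelled MT and 14 over NC. SRRM3 was present at 24.3 ± 4.5 CPM in ORF, 30.7 ± 3.7 in the libraries labelled MT and 26.9 ± 2.2 in NC (SD, n = 3 each), and the repressor PTBP1 at 893 ± 112, 860 ± 47 and 832 ± 45 CPM (SD, n = 3 each). RBFOX2 had 121 ± 18, 135 ± 25 and 150 ± 6 CPM, SRSF11, a partner of SRRM4 at microexons, 116 ± 36, 106 ± 24 and 130 ± 16, RNPS1, of the exon junction complex, 289 ± 21, 300.3 ± 2.5 and 313 ± 5, and ESRP1, a splicing factor of epithelium, 103 ± 23, 135 ± 19 and 148 ± 9 CPM (SD, n = 3 each, groups in the same order). CPM is not corrected for length and is compared here only within a gene, and in bulk RNA fewer expressing cells and less RNA per cell cannot be told apart. CPM divides by all reads of a library, while the tests use size factors, so small differences can change direction. In ORF against NC the tested log2 difference was 0.07 ± 0.14 for RNPS1 and 0.03 ± 0.18 for SRRM3 (SE), both lower in ORF by CPM. The other regulators named above kept their direction. RBFOX1, NOVA1, ELAVL2 and ELAVL4 were not listed in the gene tables.

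Of 37 listed regulators 32 were tested in each comparison with limma on log2(normalised value + 1). In ORF against NC 0 passed (0 in edgeR and 2 in DESeq2), beside 103 of 24662 genes (0.418%), with 7 at an unadjusted p under 0.05, 5 of them higher in ORF, which is 21.9% of the 32 beside 15.7% of all genes. Their median log2 difference was 0.08, beside -0.04 over all genes. In MT against NC 0 passed, also in edgeR and DESeq2, beside 0 of 25310 genes (0%), of which 4.67% had an unadjusted p under 0.05 in limma, with 3 regulators, or 9.38%, at an unadjusted p under 0.05. In ORF against MT 1 of the 32 passed, beside 89 of 24404 genes (0.365%), and 6 (18.8%) had an unadjusted p under 0.05, beside 13.1% of all genes. The regulator that passed was SRSF1, an SR protein that activates splicing, with 86.5, 125 and 127 CPM in ORF, against 66.1, 44.6 and 77.1 CPM in the libraries labelled MT, and 80.6, 74.9 and 84.2 CPM in NC. The log2 difference of ORF against MT was 0.97 ± 0.18 (SE) with an adjusted p of 0.0460 in limma, higher in 3 of 3 ORF libraries, and the call was lost in edgeR and when any 1 of the ORF and MT libraries other than the first of ORF was left out. Its difference in ORF against NC was 0.66 ± 0.14 (SE), with an adjusted p of 0.0680 in limma, and it passed there in DESeq2 (adjusted p of 0.00130) and in limma without the first (0.000568) or the second (0.0282) ORF library. NOVA2, a splicing factor of neurons, had 14.0, 14.5 and 9.28 CPM in ORF, against 25.3, 27.98 and 23.4 CPM in the libraries labelled MT and 21.7, 24.5 and 24.9 CPM in NC. The ORF libraries lay below the other 6, and the adjusted p was 0.103 against the libraries labelled MT and 0.112 against NC in limma. DESeq2 called NOVA2 lower in ORF in both comparisons, with an adjusted p of 0.00856 against the libraries labelled MT and 0.0188 against NC. So did limma without the first ORF library, with an adjusted p of 0.00897 against the libraries labelled MT and 0.00577 against NC, and, against NC, without the second (0.0357).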

How the data were processed

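RNA of 9 libraries of HCT-116 cells, 3 per group, was sequenced. The build is GRCh38, also called hg38, per the submitters' processing notes. Aligner, counter and splicing caller: not given in the sources used here. As deposited by the authors, the splicing tables hold reads of the inclusion and skipping forms, inclusion levels and form lengths (other units), and the authors' p-values and adjusted p-values. Gene tables, as deposited, hold a normalised signal that is whole reads divided by a size factor: 100% of values lay within 0.1 of a whole read. Each table is scaled separately, and ORF against MT used the recovered reads divided by median-ratio size factors over all 9 libraries.

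The 3 values in a cell are in an order that no label names, so a library number in the splicing data is a place in the cell. Commas were lost in many cells. A cell was split where only 1 split met the deposited level within 0.001, which gave reads for 86.29% of the microexons of ORF with NC and 85.54% of those of MT with NC. NC levels were identical in all 49731 events that both tables hold. All members have a skipping form of 149 bases and an inclusion form longer by the exon.

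Log2 odds of inclusion (0.5 added to reads, form lengths divided out) were fitted with limma 3.58.1 (R 4.3.3) over every event that had recovered reads, averaged 20 reads per library in both groups and lay between 0.05 and 0.95 overall. Genes at 1 or more in 3 of 6 libraries were fitted on log2(value + 1). Adjustment was by Benjamini-Hochberg over all features, and edgeR 4.0.16 and DESeq2 1.42.0 were alternatives. The code was tested on simulated data. Named exons are the 10 with the smallest p in each comparison, the 10 with the most NC reads at a level of 0.05 to 0.95, the 5 shortest tested, the tested ones in listed genes and those with levels not overlapping. PKM, AGRN, PTK2, EIF4G1 and other names beyond this rule were chosen after their values were seen. One exon that this rule names is not reported here. Members, gene lists and tests were chosen with earlier results of these data known. Replicate numbers were not used as pairs in the main tests. Correlations of deviations of same-numbered libraries in the gene tables ran from -0.64 to 0.45. With 3 libraries per group they cannot decide whether the numbers pair the libraries.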

Additional observations from a re-analysis of the deposited data

How the results depend on the processing

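The count of called microexons stayed at 0 in all 63 alternative settings of the 3 comparisons other than those with the authors' p-values: another pseudocount, 10 or 50 reads, no level filter, edgeR, arcsine levels, other level differences, all 9 libraries in 1 fit, 27 or 51 bases as the limit, 1 library left out, and, chosen after seeing the data, other splits of cells without commas and exons with no longer overlapping exon. Some of these only narrow the calls of the main fit and so had to give 0. They are the stricter level difference, the limit of 27 bases and the exons with no longer overlapping exon. Dropping the minimum level difference also had to give 0, since it reuses the main fit. The smallest adjusted p of a microexon in that limma fit was 0.446 in ORF against NC, 0.874 in MT against NC and 0.266 in ORF against MT. The authors' p-values called 94 microexons in the ORF table and 67 in the MT table, and the cause was not tested. All 456 alternative values of the 30 differences with the smallest p, 10 per comparison, kept their sign, and none passed the threshold. Settings whose filters left an exon out gave no value for it. The 30 were picked by p in these same data, so a kept sign is not independent support. For the regulators, DESeq2 called 2 in ORF against NC and 3 in ORF against MT. With replicate number as a block (the pairing is only a shared number) 2, 1 and 0 regulators were called in ORF against NC, MT against NC and ORF against MT, where 0, 0 and 1 were called without it, and 0 microexons in each. The 2 in ORF against NC, with the block as with DESeq2, were SRSF1 and NOVA2. A pseudocount of 0.5, no filter on low values and edgeR left 0 in ORF against MT. Leaving out 1 library gave 0 to 5 regulators in ORF against NC, with 5 without the first ORF library and 4 without the second, 0 in every case in MT against NC, and 0 to 2 in ORF against MT. The cause was not tested. The block call in MT against NC was U2AF1, which has a near-identical copy in GRCh38, so its reads are uncertain. Depth and lost commas both limit the splicing tests. Of 846 microexons of ORF with NC, 116 had no recovered reads and 409 had 20 recovered reads in both groups. The median SE was 0.70 log2 odds.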
